A study of Homo sapiens with 4 samples.

Results

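The SLC25 genes encode the mitochondrial carriers, and their RNA levels were compared between K562 cells exposed to hemin for 24 h and cells at 0 h. Members were all genes with a symbol of SLC25A and a number, a rule that uses no measured value. Of 48 such symbols, 44 had a named probe set, 1 each, among 17687 named genes on the array. The other 4 are not analysed here. Among the ADP/ATP carriers 3 of 4 symbols had a named probe set, and among the phosphate and ATP-Mg/phosphate carriers 4 of 5. For the ornithine, basic amino acid and carnitine carriers it was 6 of 7, and for the coenzyme and cofactor carriers 8 of 9. K562, a single human leukemia line of chronic myeloid origin, can be pushed toward the erythroid lineage. One group, labelled T1, received 50 µM hemin, an oxidized form of heme, for 24 h, and the other, labelled T0, was taken at 0 h of hemin. Both were grown in the same RPMI medium with fetal calf serum, and each was measured on 2 Human Clariom S arrays labelled as biological replicates. No 24 h culture without hemin is among the samples, so hemin and time in culture cannot be told apart. The sources used here do not say how the replicate cultures were separated, so the spread behind each p-value is that between arrays and may be technical.

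Mitochondrial carriers sit in the inner mitochondrial membrane, where most exchange 1 metabolite, nucleotide, cofactor or ion for another between the cytosol and the matrix. They share a fold built from repeated pairs of membrane helices, are made in the cytosol and are threaded into the membrane by a dedicated import route. Red cell precursors need several of them, because heme synthesis begins and ends inside mitochondria: glycine and iron must enter the matrix, and ADP, ATP and phosphate must cross for respiration. SLC25A37 and SLC25A38, the erythroid mitoferrin and the glycine carrier, are the members best known from red cells, and loss of SLC25A38 causes a congenital sideroblastic anemia.

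The deposited values are log2 intensities, processed by the authors with RMA. Olfactory receptor genes, taken as silent in these cells, set a dim line: the 95th percentile of 348 such means was 5.70, and below this line no level is counted as measured. The brightness of a probe set depends on its probes, so values are compared between time points and not between genes. The array medians ran from 6.10 to 6.24, and across probe sets the arrays correlated at r = 0.988 within 24 h and 0.982 within 0 h, against 0.972 to 0.979 between the times. Of the K562 markers listed, 6 of 10 had a named probe set and all 6 had a mean above the dim line, GATA1 and HBE1 among them. Of 11 markers of other cell types with a named probe set, 3 (MPO, ALB and COL1A1) were below the line in all 4 arrays. Another 8 had a mean above it, KRT8, EPCAM and LYZ among them. Of these 8, VWF, CD14, CD3E and PECAM1 had means of only 5.73 to 6.02, with at least 1 array below the line. Limma called 0 of the 11, against 0.943% of all probe sets, and the methods' ANOVA called 0 after adjustment. An unadjusted p under 0.05 was reached by 2, both lower, against 6.62% of all probe sets on the lower side.

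None of the 44 carrier genes was called higher or lower after 24 h of hemin. The fitted changes ran from -1.11 (SLC25A23) to 0.68 (SLC25A52) on the log2 scale, 33 of them were smaller than 0.5 in either direction, and 1 was larger than 1. Limma was fitted over all 20893 transcript probe sets, with Benjamini-Hochberg adjustment over all of them and a call at an adjusted p under 0.05. By this rule 0.943% of the probe sets were called (197, with 0.823% higher and 0.120% lower), so a count of 0 among 44 does not set the carriers apart from other genes. The smallest adjusted p of a member was 0.28. At an unadjusted p under 0.05, 0 members were higher, against 6.28% of all probe sets, and 3 were lower (6.82% of the members, against 6.62% of all probe sets, or 12.9% for both directions). The methods' ANOVA at its stated unadjusted P gave 0 higher and 3 lower members, against 859 higher and 1071 lower of all 20893 probe sets. After Benjamini-Hochberg adjustment it called 0 of all probe sets. The arrays of the 2 times did not overlap for 20 members, which is 45.5% of them against 43.6% of all probe sets; 6 were higher at 24 h and 14 lower, against 18.8% and 24.9% of all probe sets. The median change of the members was -0.16, against -0.06 over all probe sets, and 27 of the 44 had a fitted change below 0 (61.4%, against 55.1% over all). Brighter probe sets were called more often: among the 11491 with a mean above the dim line, as 34 of the members had, the called share was 1.63% (1.42% higher and 0.209% lower). There the share at an unadjusted p under 0.05 was 18.1% (9.36% higher and 8.79% lower), and the share without overlap 50.7% (23.4% higher and 27.3% lower).

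**Figure D1:**
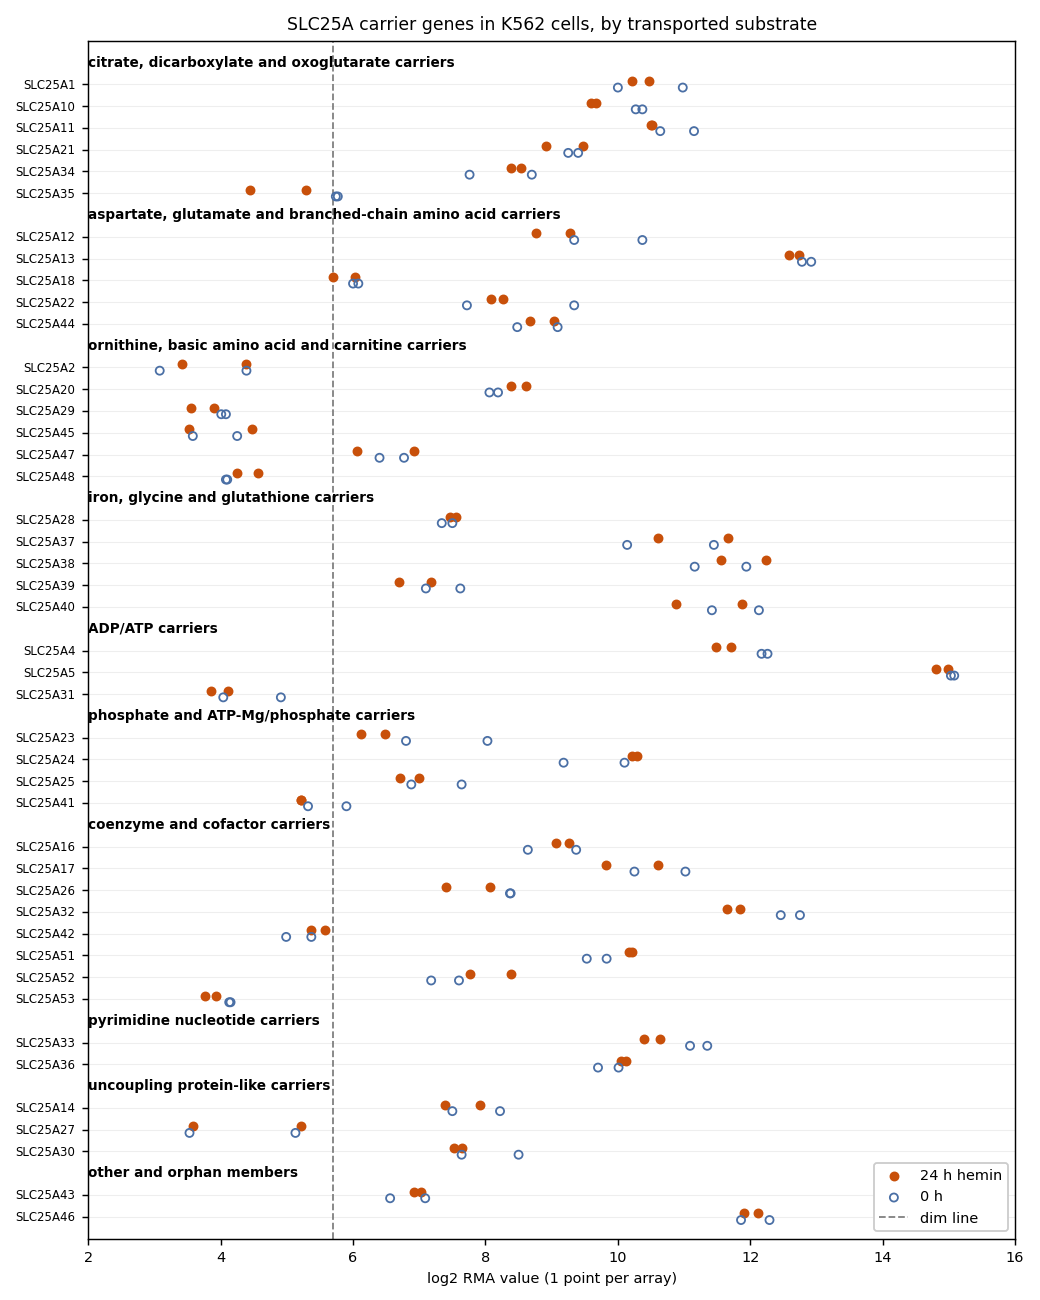
Each row is 1 SLC25A gene, with its log2 RMA value in the 2 arrays at 24 h of hemin (filled) and the 2 at 0 h (open). Genes are grouped by the substrate or role listed for each, orphans included, and the dashed line is the dim line at 5.70. For 24 of the 44 genes the points of the times overlap, and 8 genes lie left of the line in all 4 arrays.

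The precision of these changes was limited by 2 arrays per time. Standard errors of the members ran from 0.31 to 0.61 on the log2 scale. The 95% interval of the change, from limma and not adjusted for the number of genes, had its upper end below 1 for 32 of the 44 members, so a doubling lay outside it, and its lower end above -1 for 23, so a halving lay outside it. For 12 members it held neither, and for the rest it held a 2-fold change in at least 1 direction. No interval reached 2, and 1 reached below -2, that of SLC25A23. The RNA came from whole cultures, in which fewer cells making a transcript and less of it per cell cannot be told apart.

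**Figure D2:**
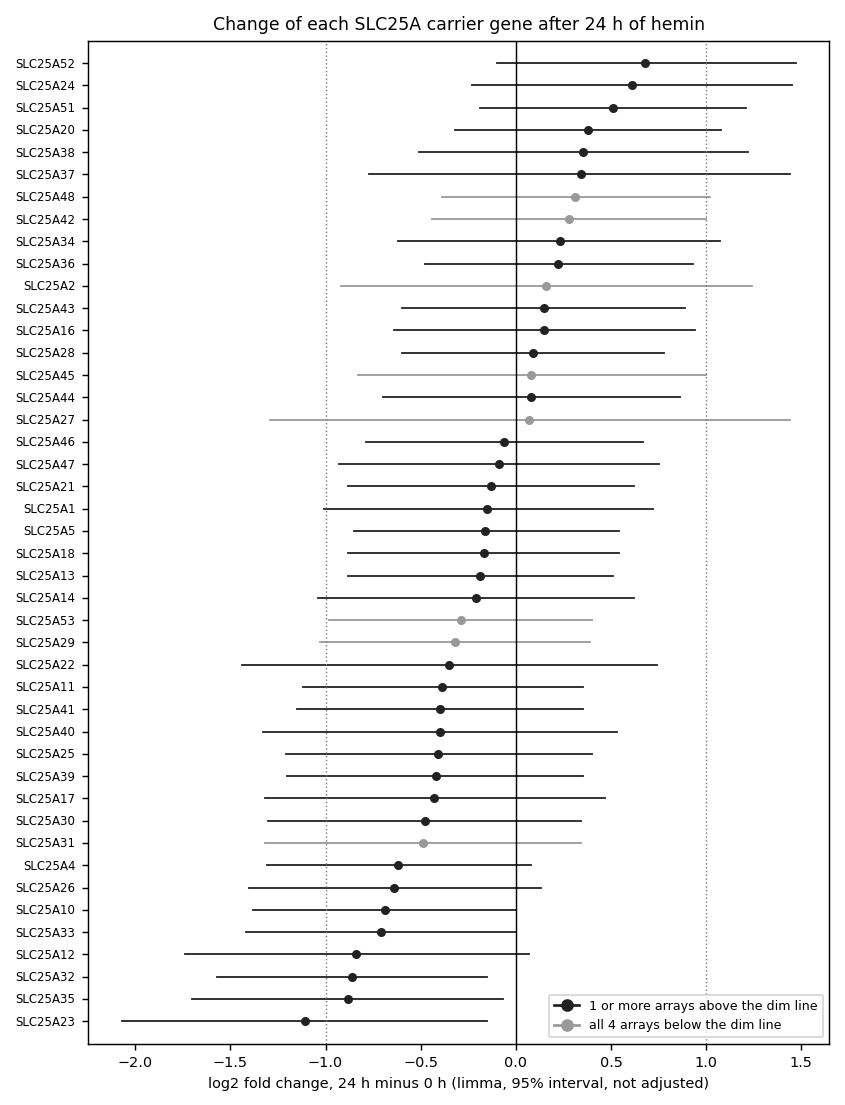
Points are the log2 fold changes of the 44 SLC25A genes, 24 h minus 0 h, with the unadjusted 95% interval of limma as lines; dotted lines mark -1 and 1, and grey marks genes below the dim line in all 4 arrays. The highest point is SLC25A52 at 0.68 and the lowest SLC25A23 at -1.11, and 3 intervals lie wholly below 0.

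The carriers of iron, glycine and glutathione were all measured above the dim line. None of the 5 was called, against 0.943% of all probe sets and 1.63% of those with a mean above the line. None separated the times, against 43.6% of all probe sets and 50.7% above the line. SLC25A37, mitoferrin 1, which brings iron into the mitochondria of developing red cells, had log2 values of 11.66 and 10.61 at 24 h and 11.45 and 10.14 at 0 h. Replicate 1 was the higher array at both times, by 1.05 at 24 h and by 1.31 at 0 h, more than the times differed. Its log2 fold change was 0.34 (standard error, SE, 0.49, 95% interval -0.77 to 1.44, limma adjusted p = 0.82), and its sign turned without replicate 2 of 0 h, to -0.32, and without replicate 1 of 24 h, to -0.18. The erythroid aminolevulinate synthase gene ALAS2, singled out after its values were seen, showed the same order of arrays, with 12.63 and 11.24 at 24 h and 12.59 and 11.23 at 0 h. The difference between replicate numbers was 1.39 and 1.36 there, against a change of 0.03 between the times (SE 0.54). Over all probe sets the replicate numbers did not pair the arrays, as their deviations correlated at r = -0.003.

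SLC25A28, mitoferrin 2, the iron importer of cells in general, was at 7.47 and 7.56 at 24 h and at 7.34 and 7.5 at 0 h. These 4 arrays lay closer together than those of most members, and the log2 fold change was 0.09 (SE 0.31, 95% interval -0.60 to 0.78, limma adjusted p = 0.93). No array exceeded the floor of 7.56 set by negative control probe sets. SLC25A38, which imports glycine for the first step of heme synthesis, was at 11.56 and 12.24 at 24 h and at 11.94 and 11.16 at 0 h. The ranges overlap, and the log2 fold change was 0.35 (SE 0.39, 95% interval -0.51 to 1.22, limma adjusted p = 0.76), or -0.03 without replicate 2 of 0 h. SLC25A39 and SLC25A40 are paralogs that carry glutathione into mitochondria. SLC25A39 was at 7.17 and 6.70 at 24 h and at 7.10 and 7.62 at 0 h, a log2 fold change of -0.42 (SE 0.35, limma adjusted p = 0.66). SLC25A40 was at 10.88 and 11.87 at 24 h and at 11.42 and 12.13 at 0 h, a log2 fold change of -0.40 (SE 0.41, limma adjusted p = 0.74), with the sign turned to 0.09 without replicate 1 of 24 h. For both paralogs the arrays of the times overlap, and 3 arrays of SLC25A39 were under the negative control floor.

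**Figure D3:**
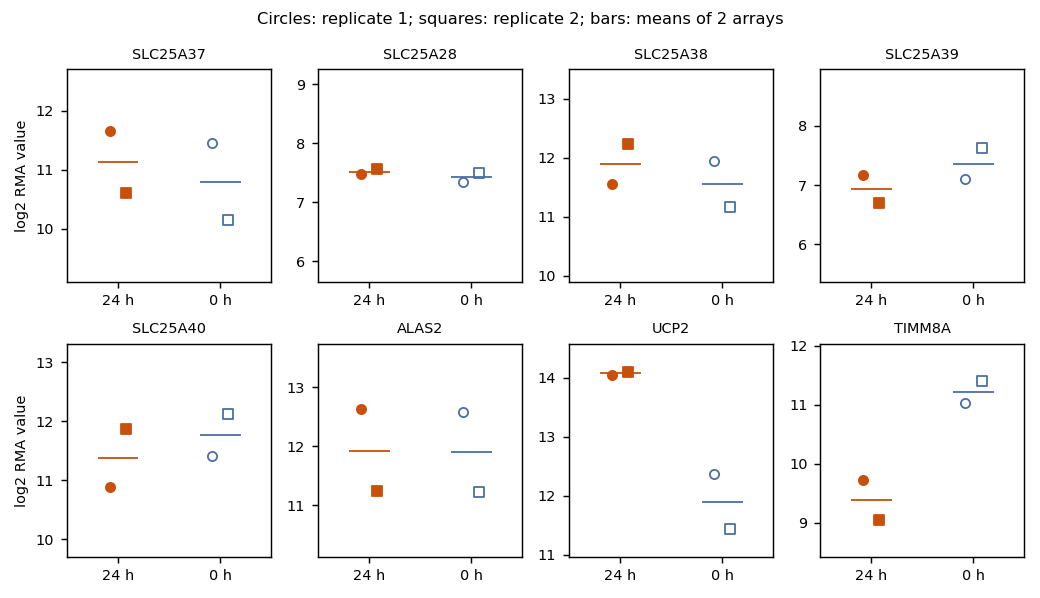
Log2 RMA values of the 5 iron, glycine and glutathione carriers and of ALAS2, UCP2 and TIMM8A, with the 24 h arrays on the left and the 0 h arrays on the right of each panel; circles are replicate 1, squares replicate 2 and bars the means, and all panels span the same range. In SLC25A37 and ALAS2 the circle is above the square at both times, while in UCP2 and TIMM8A the times do not overlap.

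The stretches of 250 bases before the annotated starts of 3 of these carriers are shown, with that of UCP2, a family member under another symbol that rose, because motifs of erythroid and antioxidant factors were searched in them. They come from RefSeq on GRCh38.p14, 5′ to 3′ on the gene's strand, and the capitals mark the only motif match among them, an antioxidant response element core in reverse, 147 to 139 bases before the start of SLC25A39.
SLC25A38 (chr3:39383120-39383369, plus strand): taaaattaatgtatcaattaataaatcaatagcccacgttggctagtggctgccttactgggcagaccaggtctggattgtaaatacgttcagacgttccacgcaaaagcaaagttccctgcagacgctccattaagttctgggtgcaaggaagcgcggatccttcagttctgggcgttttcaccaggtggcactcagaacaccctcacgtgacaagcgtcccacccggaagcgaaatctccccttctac
SLC25A28 (chr10:99620440-99620689, minus strand): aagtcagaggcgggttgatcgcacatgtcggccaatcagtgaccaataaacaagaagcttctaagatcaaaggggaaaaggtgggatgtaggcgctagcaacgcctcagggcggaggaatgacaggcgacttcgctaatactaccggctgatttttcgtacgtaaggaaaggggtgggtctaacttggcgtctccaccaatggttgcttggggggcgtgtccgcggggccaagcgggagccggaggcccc
SLC25A39 (chr17:44324824-44325073, minus strand): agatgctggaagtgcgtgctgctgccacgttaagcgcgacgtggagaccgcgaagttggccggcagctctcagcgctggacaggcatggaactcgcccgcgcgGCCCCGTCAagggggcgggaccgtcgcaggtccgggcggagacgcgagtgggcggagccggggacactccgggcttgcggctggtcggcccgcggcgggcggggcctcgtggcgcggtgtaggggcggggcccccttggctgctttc
UCP2 (chr11:73983203-73983452, minus strand): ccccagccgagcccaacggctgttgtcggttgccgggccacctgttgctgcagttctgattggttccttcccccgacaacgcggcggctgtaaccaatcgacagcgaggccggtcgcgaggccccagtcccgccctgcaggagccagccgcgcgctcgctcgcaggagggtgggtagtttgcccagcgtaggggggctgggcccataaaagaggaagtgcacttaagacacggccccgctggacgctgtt
Windows of this length were found for 37 of the 44 members, and not for SLC25A2, SLC25A16, SLC25A30, SLC25A32, SLC25A35, SLC25A37 and SLC25A41. They were searched on both strands for 5 motifs, none of which overlapped another in the stretches shown. The antioxidant response element core TGACNNNGC stood in 5 members (13.5%, against 11% of the windows of all 27305 genes), namely SLC25A1, SLC25A5, SLC25A13, SLC25A24 and SLC25A39. The GATA motif AGATAA stood in SLC25A4 and SLC25A26 (5.41%, against 9.37%), the ETS motif CCGGAAGT in SLC25A17, SLC25A24 and SLC25A46 (8.11%, against 3.64%), and the motif of the amino acid response TGATGNAA in SLC25A11 (2.70%, against 3.19%). The palindromic motif of nuclear respiratory factor 1 stood in 0 of the 37 and in 1.13% of all windows. A match is a run of letters, and no binding was measured.

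The ADP/ATP carriers, which exchange cytosolic ADP for ATP made in the matrix, had 3 genes with a named probe set. None was called, against 0.943% of all probe sets. SLC25A4, the form of heart and muscle, was at 11.48 and 11.71 at 24 h and at 12.26 and 12.17 at 0 h. Both arrays at 24 h lay below both at 0 h, and the log2 fold change was -0.62 (SE 0.31, limma adjusted p = 0.45; the methods' ANOVA gave an unadjusted P of 0.040). SLC25A5, the form of proliferating cells, was at 14.99 and 14.81 at 24 h and at 15.08 and 15.03 at 0 h, a log2 fold change of -0.16 (SE 0.31, 95% interval -0.85 to 0.54, limma adjusted p = 0.88). The testis form SLC25A31 lay under the dim line throughout, at 3.86 and 4.11 at 24 h and at 4.04 and 4.91 at 0 h, with a fitted change of -0.49 (SE 0.37, limma adjusted p = 0.63). The 3 are similar in sequence, and how far their probes tell them apart was not tested.

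Among the ATP-Mg/phosphate carriers, which set the adenine nucleotide content of the matrix, SLC25A23 had the lowest fitted change of the family. It was at 6.49 and 6.12 at 24 h and at 8.03 and 6.80 at 0 h, so the times did not overlap but the 2 arrays at 0 h stood 1.23 apart. The log2 fold change was -1.11 (SE 0.43, 95% interval -2.07 to -0.15, limma adjusted p = 0.30), -0.49 without replicate 1 of 0 h and -1.73 without replicate 2 of 0 h. The negative control floor of 7.56 lay above 3 of its arrays. Its paralog SLC25A24 was at 10.29 and 10.21 at 24 h and at 9.18 and 10.10 at 0 h, a log2 fold change of 0.61 (SE 0.37, limma adjusted p = 0.54). SLC25A25 differed by -0.41 and overlapped between the times, and SLC25A41 was below the dim line in 3 of 4 arrays.

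The group listed as carriers of coenzymes and cofactors had changes from -0.86 to 0.68 over 8 genes. SLC25A32, which brings folate into the mitochondria for one-carbon metabolism, had the smallest adjusted p of the family. It was at 11.85 and 11.65 at 24 h and at 12.46 and 12.75 at 0 h. The times did not overlap, and the log2 fold change was -0.86 (SE 0.32, 95% interval -1.57 to -0.15, limma adjusted p = 0.28), or 0.553 of the level at 0 h. Leaving out single arrays gave -1.0 to -0.71. SLC25A51, the carrier of NAD+, was at 10.21 and 10.17 at 24 h and at 9.83 and 9.53 at 0 h, and its close copy SLC25A52 at 8.39 and 7.76 at 24 h and at 7.60 and 7.18 at 0 h. Both lay higher in every array at 24 h than in any at 0 h, as did 18.8% of all probe sets and 23.4% above the dim line. Their log2 fold changes were 0.51 and 0.68 (limma adjusted p of 0.55 and 0.46). For SLC25A52, 1 array at 0 h was under the negative control floor of 7.56. The transcripts of SLC25A51 and SLC25A52 are near-identical and the probes may share them, so the values may not be independent. SLC25A26, which carries S-adenosylmethionine, differed by -0.64, SLC25A17, a peroxisomal carrier of coenzyme A, by -0.43 and SLC25A16 by 0.15, with adjusted p from 0.48 to 0.90. SLC25A42, a coenzyme A carrier, and SLC25A53 lay under the dim line throughout.

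The citrate, dicarboxylate and oxoglutarate carriers, which link the citric acid cycle to the cytosol, were 6 genes. Of these, 5 had a fitted change below 0, against 55.1% of all probe sets, and none was called, against 0.943%. SLC25A10, the dicarboxylate carrier, was at 9.60 and 9.67 at 24 h and at 10.27 and 10.37 at 0 h. The times did not overlap and the replicates were close, and the log2 fold change was -0.69 (SE 0.31, limma adjusted p = 0.39; the methods' ANOVA gave an unadjusted P of 0.0085). SLC25A1, the citrate carrier that feeds fatty acid synthesis, differed by -0.15 and the oxoglutarate carrier SLC25A11 by -0.39. The oxoadipate carrier SLC25A21 and SLC25A34 differed by -0.13 and 0.23. SLC25A35, whose substrate is less well known, was at 4.45 and 5.29 at 24 h and at 5.74 and 5.77 at 0 h. It was below the dim line in both arrays at 24 h and barely above it at 0 h, so its fitted change of -0.88 (limma adjusted p = 0.34) amounts to at least 1.04-fold lower when the line is taken as the floor. All 4 of its arrays were under the negative control floor of 7.56, and against that floor no least change can be given.

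The carriers of aspartate, glutamate and branched-chain amino acids had 5 genes with a named probe set, with changes from -0.84 to 0.08. SLC25A12 and SLC25A13 export aspartate in exchange for glutamate and so drive the malate-aspartate shuttle. SLC25A12 was at 8.76 and 9.27 at 24 h and at 9.34 and 10.37 at 0 h, a log2 fold change of -0.84 (SE 0.40, limma adjusted p = 0.43). SLC25A13 was at 12.59 and 12.73 at 24 h and at 12.92 and 12.78 at 0 h, a log2 fold change of -0.19 (SE 0.31, 95% interval -0.88 to 0.51, limma adjusted p = 0.85). Both arrays at 24 h lay below both at 0 h for each of these paralogs, as for 24.9% of all probe sets and 27.3% above the dim line. The glutamate carriers SLC25A22 and SLC25A18 differed by -0.35 and -0.17, and SLC25A44, the carrier of branched-chain amino acids, by 0.08. SLC25A18 was below the dim line in 1 array and under the negative control floor in all 4. The 4 enzymes of the shuttle, GOT1, GOT2, MDH1 and MDH2, all had a mean above the dim line. Limma called 0 of the 4, against 0.943% of all probe sets and 1.63% of those above the line. An unadjusted p under 0.05 was reached by 0 of them, against 12.9% of all probe sets and 18.1% above the line. Their changes ran from -0.66 (MDH1) to 0.16 (GOT2).

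The pyrimidine nucleotide carriers had fitted changes of opposite sign. SLC25A33 was at 10.63 and 10.39 at 24 h and at 11.09 and 11.35 at 0 h, a log2 fold change of -0.71 (SE 0.32, limma adjusted p = 0.39), and SLC25A36 was at 10.04 and 10.12 at 24 h and at 9.70 and 10.01 at 0 h, a change of 0.22 (limma adjusted p = 0.82). Whether the paralogs differ in their change was not tested. Of the group listed as carriers of ornithine, basic amino acids and carnitine, 4 of 6 lay under the dim line throughout (SLC25A2, SLC25A29, SLC25A45 and SLC25A48). SLC25A47, known from the liver, lay between 6.06 and 6.92, under the negative control floor in all 4 arrays. SLC25A20, the carnitine-acylcarnitine carrier that brings fatty acids in for oxidation, was at 8.39 and 8.61 at 24 h and at 8.19 and 8.06 at 0 h, a log2 fold change of 0.38 (SE 0.31, limma adjusted p = 0.67). Of the uncoupling protein-like members, SLC25A27 lay under the dim line throughout, and SLC25A14 differed by -0.21 with overlapping arrays. SLC25A30 was at 7.65 and 7.53 at 24 h and at 8.5 and 7.64 at 0 h, which overlap, and its log2 fold change was -0.48 (SE 0.37, limma adjusted p = 0.64). SLC25A46, an outer membrane protein that acts on mitochondrial shape, was at 12.12 and 11.91 at 24 h and at 11.86 and 12.29 at 0 h. Its change was -0.06 (SE 0.33, limma adjusted p = 0.96) and took the other sign without replicate 2 of 0 h (0.16) or replicate 2 of 24 h (0.04). The orphan SLC25A43 was at 6.92 and 7.03 at 24 h and at 7.09 and 6.56 at 0 h, which overlap, with a log2 fold change of 0.15 (SE 0.33, limma adjusted p = 0.90). All 4 of its arrays were under the negative control floor.

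Of 5 genes of the same protein family that carry other symbols, 1 rose and 0 fell, against 0.823% and 0.120% of all probe sets. Among probe sets with a mean above the dim line, as 3 of the 5 had, 1.42% were called higher. The arrays of the times did not overlap for 3 genes on the higher and 2 on the lower side, against 18.8% and 24.9% of all probe sets. With so few genes, 1 call does not set the list apart. UCP2, an uncoupling protein homolog that moves four-carbon acids out of the matrix, was at 14.04 and 14.10 at 24 h and at 12.36 and 11.43 at 0 h. Both arrays at 24 h lay above both at 0 h by more than 1.5 on the log2 scale. The log2 fold change was 2.18, or 4.52-fold (SE 0.37, 95% interval 1.34 to 3.02, limma adjusted p = 0.030). The call was lost without replicate 1 of 0 h (adjusted p = 0.058), without replicate 2 of 0 h (adjusted p = 0.15) and by the methods' ANOVA after adjustment (adjusted p = 0.53), and the fitted change without single arrays ran from 1.71 to 2.64. MTCH1 and MTCH2, carrier-like proteins of the outer membrane, had log2 fold changes of 0.68 and -0.50 (limma adjusted p of 0.41 and 0.55). UCP1, the uncoupler of brown fat, lay under the dim line on each array, and UCP3 was near it, from 5.47 to 5.89.

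**Figure D4:**
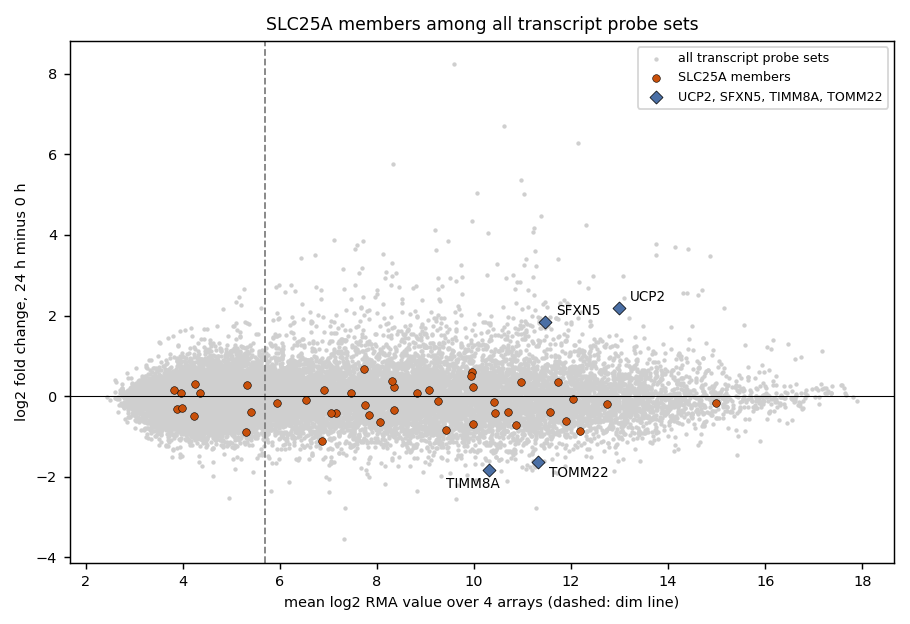
Log2 fold change, 24 h minus 0 h, against the mean log2 RMA value over the 4 arrays for all 20893 transcript probe sets (grey), the 44 SLC25A members (filled circles) and 4 related genes (diamonds); the dashed line is the dim line. The members lie between -1.11 and 0.68 and the grey points between -3.54 and 8.23, with UCP2 and SFXN5 at 2.18 and 1.84 and TIMM8A and TOMM22 at -1.83 and -1.64.

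Genes of the route by which carriers enter the inner membrane gave no call either, against 0.943% of all probe sets. Of 16 genes of carrier import and insertion, 15 had a named probe set, 14 of these had a fitted change below 0, against 55.1% of all probe sets, and 4 had an unadjusted p under 0.05, all lower, against 6.62% of all probe sets and 8.79% of those with a mean above the dim line, as all 15 had. Their median change was -0.32, against -0.06 over all probe sets and -0.03 over those above the line. TIMM8A, a small chaperone of the space between the membranes, was at 9.73 and 9.05 at 24 h and at 11.03 and 11.40 at 0 h, a log2 fold change of -1.83 (SE 0.35, limma adjusted p = 0.053). TOMM22, a receptor of the outer membrane translocase, was at 10.70 and 10.31 at 24 h and at 12.58 and 11.71 at 0 h, a change of -1.64 (SE 0.38, limma adjusted p = 0.086). Both genes lay lower in every array at 24 h than in any at 0 h, as did 24.9% of all probe sets and 27.3% above the line. TIMM8A passed the threshold in 8 of 13 alternatives and TOMM22 in 3 of 13, with adjusted p from 0.0089 to 0.52 and from 0.022 to 0.57. Of 20 transporters of the mitochondrial membranes outside the family with a named probe set, 18 with a mean above the dim line, 1 rose and 0 fell, against 0.823% and 0.120% of all probe sets. An unadjusted p under 0.05 was reached by 3 on the higher and 4 on the lower side, against 6.28% and 6.62% of all probe sets (9.36% and 8.79% above the line). SFXN5, a sideroflexin, was at 12.62 and 12.17 at 24 h and at 10.76 and 10.35 at 0 h, a log2 fold change of 1.84 (SE 0.34, limma adjusted p = 0.043). That call was lost without either array of 0 h (adjusted p of 0.12 without replicate 1 and 0.17 without replicate 2), without replicate 1 of 24 h (adjusted p = 0.12) and by the methods' ANOVA after adjustment (adjusted p = 0.51). MPC1, a subunit of the pyruvate carrier, had a log2 fold change of -1.30 (limma adjusted p = 0.13), and its partner MPC2 of 0.34.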

How the data were processed

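Human Clariom S arrays, 2 at 24 h and 2 at 0 h of hemin, measured RNA of K562 cells. The log2 values, as deposited, were made by the authors with RMA in Affymetrix Expression Console (background correction, log2, quantile normalization); the submitters' processing notes also name Partek. Tool versions and a build were not given in the sources used here. Of 24351 rows, 2903 array controls and 555 unmapped transcripts were not used, which left 20893 transcript probe sets for limma 3.58.1 in R 4.3.3 (24 h minus 0 h, two-sided, no covariate, 7.47 prior degrees of freedom). Gene symbols came from GEO's platform annotation, checked against NCBI RefSeq, which updated 0 (17705 probe sets with 1 symbol, 0 with several, 3188 unnamed here). Arrays have no read depth; their number limits the precision. The 612 negative control probe sets had a 95th percentile of 7.56, and against that floor 23 members were above in all 4 arrays and 14 below in all 4. Full values were given for members with an unadjusted p under 0.05, the iron, glycine, glutathione and ADP/ATP carriers and the 5 brightest members, and for the largest difference in each group of carriers; others with array values were chosen after these were seen. Members, lists and motifs were chosen with earlier results of these data known. Alternatives were a repeated quantile normalization and median centring, a dim filter, variance models, each array left out, weights for arrays, other thresholds, a block on the replicate number and the methods' ANOVA; the floor of the negative controls as a filter, and the alternatives for UCP2, SFXN5, TIMM8A and TOMM22, were added after seeing the data.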

Additional observations from a re-analysis of the deposited data

How the results depend on the processing

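The count of 0 called carrier genes in either direction stayed at 0 under 2 other normalizations, 2 filters on dim probe sets, 1 probe set per named gene, weights for arrays, a trend and robust variance model, the replicate block, thresholds of 0.10 and 0.01 on the adjusted p, and without each array in turn. The exception was the methods' ANOVA at its unadjusted P, with 3 lower (SLC25A4, SLC25A10 and SLC25A32) and 0 higher; it gave 0 after adjustment. The smallest adjusted p of any carrier in these fits was 0.10, for SLC25A32 with the filter at the negative control floor, which tests fewer genes. The median change of the carriers was -0.17 with quantile normalization repeated and -0.15 with median centring, and -0.26 to -0.14 without single arrays. No carrier had more than 1 probe set, so the choice of probe set had no alternative. The replicate numbers come from the labels, which do not say that they mark a shared culture or day, and the deviations did not pair (r = -0.003); with the replicate block 319 probe sets were called higher and 110 lower, and 0 carriers.

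Over all probe sets, 172 higher and 25 lower, the calls numbered 387 and 159 with the trend and robust model, 337 and 158 with the filter at the negative control floor, and 859 and 1071 by the methods' ANOVA at its unadjusted P, or 0 and 0 after adjustment. The lower calls were 47 with median centring, 63 with the filter at the dim line and 57 with 1 probe set per gene. Without single arrays the higher calls ran from 27 to 304 (27 without replicate 1 of 0 h, 51 without replicate 2 of 0 h and 304 without replicate 2 of 24 h) and the lower from 0 to 88 (0, 2 and 88 in the same order). The cause of these shifts was not tested. Among the 13 carriers followed singly, a sign turned only when an array was left out: SLC25A37 ranged from -0.32 to 1.00, SLC25A38 from -0.03 to 0.74, SLC25A40 from -0.90 to 0.09 and SLC25A46 from -0.28 to 0.16. With 7 carriers partly and 14 wholly below the negative control floor, changes of dim carriers are the least certain.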

Other observations

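Of 10 genes of mitochondrial heme and iron-sulfur synthesis, which work beside the iron and glycine carriers, 9 had a named probe set. All 9 had a mean above the dim line. None was called by limma, against 0.943% of all probe sets and 1.63% of those above the line. Only 1 reached an unadjusted p under 0.05, on the higher side, against 6.28% of all probe sets and 9.36% above the line. It was FECH, the ferrochelatase that inserts the iron, at 12.29 and 12.16 at 24 h and at 10.65 and 10.80 at 0 h, with a log2 fold change of 1.5 (SE 0.31, limma adjusted p = 0.063). PPOX, the enzyme before it, was at 8.80 and 8.23 at 24 h and at 8.18 and 6.95 at 0 h, a change of 0.96 (SE 0.44, limma adjusted p = 0.40). Both genes lay higher in every array at 24 h than in any at 0 h, as did 18.8% of all probe sets and 23.4% above the line. Of the 9 genes, 2 were separated on the higher and 2 on the lower side, where the shares were 24.9% of all probe sets and 27.3% above the line. For PPOX, 1 array at 0 h was under the negative control floor of 7.56. The other heme synthesis genes of the list, CPOX, ALAS1 and ALAS2, differed by 0.01, -0.25 and 0.03, with overlapping arrays. The iron-sulfur cluster gene GLRX5 had a log2 fold change of -0.66 (limma adjusted p = 0.42), and ISCU, NFS1 and LYRM4 lay between -0.39 and 0.10.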
